A study of Mus musculus with 6 samples.

Results

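The 10 nuclear genes that encode 5 pairs of alternative subunits of cytochrome c oxidase were followed in aging mouse articular cartilage. They were found by gene name in the deposited table, and all 10 of 10 names were present among its 33971 genes. In each pair one form is used in most tissues (Cox4i1, Cox6a1, Cox7a2, Cox8a and Ndufa4) and the other is enriched in certain tissues or conditions (Cox4i2, Cox6a2, Cox7a1, Cox8b and Ndufa4l2). Of the 10 genes, 9 passed the filter on low counts and were tested, and Cox8b did not.

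Cytochrome c oxidase, also called complex IV, is the last enzyme of the respiratory chain and passes electrons from cytochrome c to oxygen. Its catalytic core is encoded in the mitochondrial genome, and nuclear subunits surround that core and adjust its activity and stability. Several nuclear subunits exist as paralogs. Cox4i2 is best known from lung and from cells at low oxygen, where it takes the place of Cox4i1. Cox6a2 and Cox7a1 are the heart and skeletal muscle forms, and Cox8b is a form of heart, skeletal muscle and brown fat in rodents. Ndufa4 was first assigned to complex I and is now counted with complex IV, and its paralog Ndufa4l2 is a target of hypoxia-inducible factors. Cartilage has no blood vessels, and its cells, the chondrocytes, live at low oxygen and rely largely on glycolysis.

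The study asked how the metabolism of cartilage changes with age, and it sequenced polyadenylated RNA from articular cartilage of wildtype (WT) mice. The young group was 2 months old (n = 3 libraries) and the aged group 18 months old (n = 3 libraries), with no treatment in either group. The labels give neither strain nor sex for these libraries, and the methods describe male mice. The study describes its samples as independent, but neither the labels nor the methods say that each library came from a different animal, so p-values measure the spread between these libraries only.

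The libraries held 48171507 to 59085179 counts. Age was not the only difference between them. Xist, the transcript of the inactive X chromosome, had an FPKM of 89.5 to 101 in young cartilage and of 0.00875 to 0.0261 in aged cartilage, which goes against male mice in the young group, and age and sex cannot be told apart. A list of 16 chondrocyte markers took 7.54% to 8.87% of counts at 2 months and 0.195% to 0.846% at 18 months, where replicate 1 was the highest. A list of 14 neutrophil markers took 4.27% to 4.59% of counts at 18 months, and at 2 months 0.560% in replicate 2 against 0.00173% and 0.0268% in replicates 1 and 3. In bulk samples, fewer cells of a type and less RNA per cell cannot be told apart.

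The coding sequences show how far the counts of a pair can be told apart. Over the aligned coding bases, identity was 65.1% for Cox4i2 and Cox4i1, 62.5% for Cox6a2 and Cox6a1, 61.4% for Cox7a1 and Cox7a2, 52.9% for Cox8b and Cox8a, and 67.4% for Ndufa4l2 and Ndufa4. The longest identical run was 14, 12, 12, 10 and 28 bases in the same order. The most alike 60 bases of the pairs with the largest differences between ages are shown, since they are the place where reads would be hardest to assign. Capitals mark the bases that differ within a pair, 12 in the Cox4 pair and 7 in the Ndufa4 pair. The sequences were read 5′ to 3′ from GENCODE M21 transcripts (mouse build GRCm38), and the whole of each stretch is coding. The Cox4i2 stretch is coding bases 443 to 502, within 1 exon at chr2:152764805-152764864 on the plus strand, and that of Cox4i1 is coding bases 434 to 493, within 1 exon at chr8:120674031-120674090 on the plus strand. The Ndufa4l2 stretch (coding bases 135 to 194) and the Ndufa4 stretch (120 to 179) cross an exon boundary, on the plus strand between chr10:127515476 and 127516312 and on the minus strand between chr6:11905215 and 11906031.
Cox4i2: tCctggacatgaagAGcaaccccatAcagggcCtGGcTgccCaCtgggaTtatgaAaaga
Cox4i1: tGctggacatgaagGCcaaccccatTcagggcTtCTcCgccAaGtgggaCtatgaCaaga
Ndufa4l2: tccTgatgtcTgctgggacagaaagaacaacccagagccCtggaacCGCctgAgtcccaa
Ndufa4: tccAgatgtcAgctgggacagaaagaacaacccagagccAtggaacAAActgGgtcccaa

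The transcript with the longest complete coding sequence of each member was screened for identical stretches of 75 bases. No such stretch was shared between the 2 forms of any pair. Against all transcripts of GENCODE M21, pseudogenes included, only the Cox6a1 transcript had such a stretch in another gene. It shared 32 of its 497 windows of 75 bases with AC148174.2, a pseudogene with 0 to 10 counts per library. Other transcripts of the members were not screened. Overlapping genes on the opposite strand were Emc8 for Cox4i1 and Itgad for Cox6a2. The library kit marks the strand, but whether counting used it is not given in the sources used here.

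Cox4i2, the form of the regulatory subunit 4 known from low oxygen, ranked second of the 10 transcripts in 2 of 3 young libraries and fell with age. Its gene (ENSMUSG00000009876) lies on chromosome 2 from 152754173 to 152765037 on the plus strand. The FPKM, the count scaled by transcript length and library total, was 166, 64.4 and 132 in 2-month replicates 1, 2 and 3. At 18 months it was 11.6, 4.40 and 4.62. The aged libraries all lay below the young ones, and the closest libraries had 64.4 and 11.6. The counts were 7173, 2969 and 5841 at 2 months and 614, 218 and 233 at 18 months. On the log2 scale the edgeR difference, 18 months against 2 months, was -4.25 ± 0.59 (SE), a 19.0-fold fall, with an adjusted p of 0.0032.

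Cox4i1, its counterpart in most tissues, moved the other way. Its gene (ENSMUSG00000031818) lies on chromosome 8 from 120668222 to 120674207 on the plus strand. The FPKM was 78.8, 74.4 and 67.0 at 2 months and 128, 130 and 131 at 18 months. The ages did not overlap, and the rise was small beside the fall of Cox4i2. The edgeR log2 difference was 0.74 ± 0.11 (SE), or 1.67-fold, with an adjusted p of 0.0041. The overlapping gene Emc8 had 1605 to 2035 counts in the 6 libraries, against 5837 to 13332 for Cox4i1.

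The 2 changes together altered the balance of the forms of subunit 4. Cox4i2 made up 67.8%, 46.4% and 66.3% of the FPKM of the pair in 2-month replicates 1, 2 and 3. It made up 8.29%, 3.27% and 3.40% at 18 months. By FPKM, Cox4i2 was thus the more abundant form in 2 of 3 young libraries and in 0 of 3 aged ones. By counts it made up 51.7%, 30.5% and 50.0% of the pair in 2-month replicates 1, 2 and 3. The forms were thus near equal by counts in replicates 1 and 3, and Cox4i2 was the minority in replicate 2. At 18 months its count shares were 4.40%, 1.69% and 1.76%. The FPKM of both forms added up to 194 ± 53.0 in young and 137 ± 2.65 in aged cartilage (SD, n = 3 each). These sums overlapped, since 2-month replicate 2 had 138.8 and 18-month replicate 1 had 139.5. They also depend on length scaling, which weighs a count of Cox4i2 more than a count of Cox4i1. In 2-month replicate 1, 7173 counts of Cox4i2 gave an FPKM of 166, and 6709 counts of Cox4i1 gave 78.8. The sums of counts were not compared, so a change in the total of the pair is not shown.

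Ndufa4l2, the paralog of Ndufa4 that is induced under hypoxia, was the most abundant of the 10 transcripts in every young library. Its gene (ENSMUSG00000040280) lies on chromosome 10 from 127514967 to 127517053 on the plus strand. The FPKM was 547, 164 and 413 at 2 months and 47.7, 8.25 and 8.32 at 18 months. The ages did not overlap, but the libraries of one age differed widely, with replicate 2 low among the young and replicate 1 high among the aged. The counts were 32903, 10528 and 25410 at 2 months and 3514, 569 and 582 at 18 months. The edgeR log2 difference was -4.25 ± 0.96 (SE), a 19.1-fold fall, with an adjusted p of 0.014. Without 18-month replicate 1 the difference was -5.58, with an adjusted p of 0.0068.

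Ndufa4 (ENSMUSG00000029632, chromosome 6 from 11900292 to 11907483, minus strand) had the largest rise of the 5 ubiquitous forms. Its FPKM was 18.9, 31.1 and 18.4 at 2 months. At 18 months it was 65.7, 68.2 and 69.6. Every aged library was above every young one, and 2-month replicate 2 was again the young library nearest to the aged ones. The edgeR log2 difference was 1.51 ± 0.19 (SE), or 2.85-fold, with an adjusted p of 0.0026.

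Ndufa4l2 made up 96.7%, 84.1% and 95.7% of the FPKM of the Ndufa4 pair at 2 months. It made up 42.1%, 10.8% and 10.7% at 18 months. It was the more abundant form in 3 of 3 young libraries and in 0 of 3 aged ones. The summed FPKM of this pair was 398 ± 188 in young and 89.3 ± 20.9 in aged cartilage (SD, n = 3 each).

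**Figure D1:**
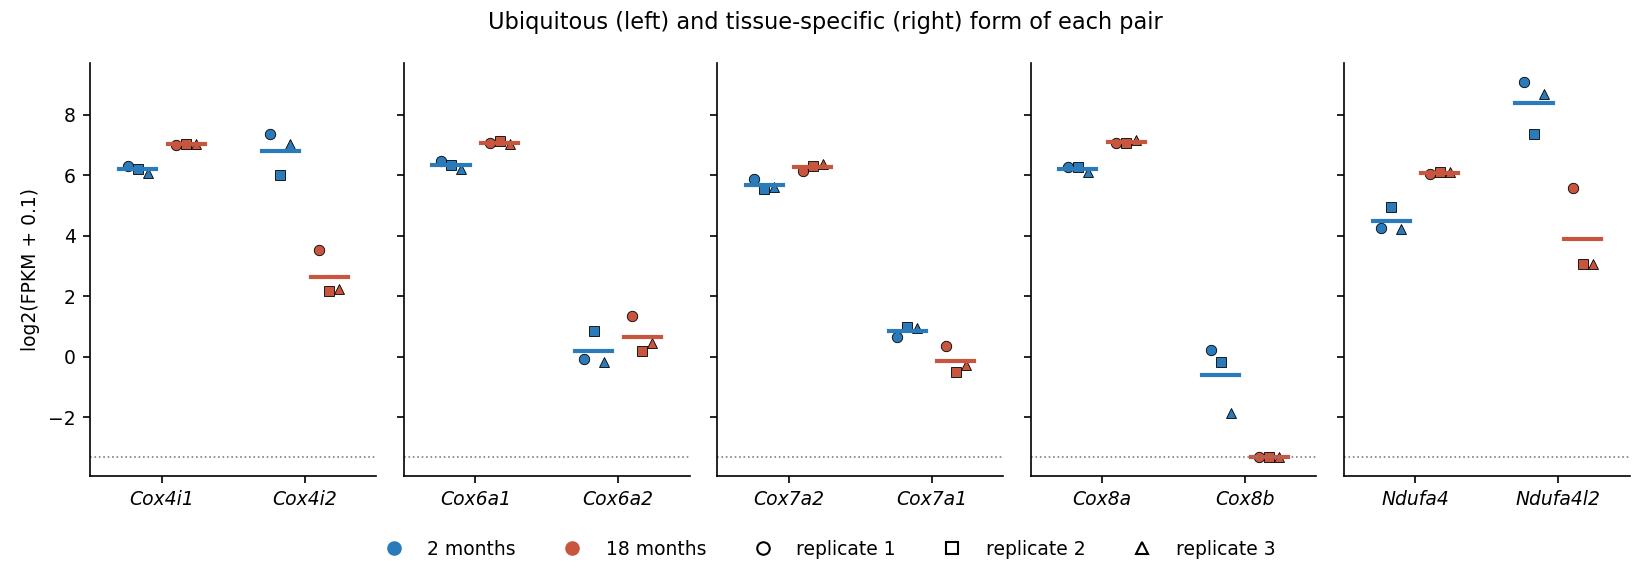
Level of the 10 genes as log2(FPKM + 0.1), 1 panel per pair with the ubiquitous form at the left, where symbols are libraries, horizontal bars are the means of 3 libraries and the dotted line is an FPKM of 0. All 5 ubiquitous forms were higher at 18 months with no overlap of the ages, Cox4i2 and Ndufa4l2 were lower by 19.0-fold and 19.1-fold in edgeR, and Cox8b lay on the dotted line in every aged library.

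Where the same libraries stood apart, other measures moved with these values. In 2-month replicate 2 the lists of neutrophil and erythroid markers took 0.560% and 0.669% of counts, against at most 0.0268% and 0.0706% in the other young libraries, while the chondrocyte list took 8.31%. In 18-month replicate 1 the chondrocyte list took 0.846% of counts, against 0.196% and 0.195% in replicates 2 and 3. The markers of the chondrocyte list went both ways in 2-month replicate 2, where Col2a1 was the highest and Prg4 and Acan the lowest of the young libraries. The part of these differences in the levels of Cox4i2, Ndufa4l2 and Ndufa4 was not tested. Without 2-month replicate 2 the log2 differences were -4.55 for Cox4i2, -4.61 for Ndufa4l2 and 1.76 for Ndufa4, and all 3 were still called by edgeR.

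**Figure D2:**
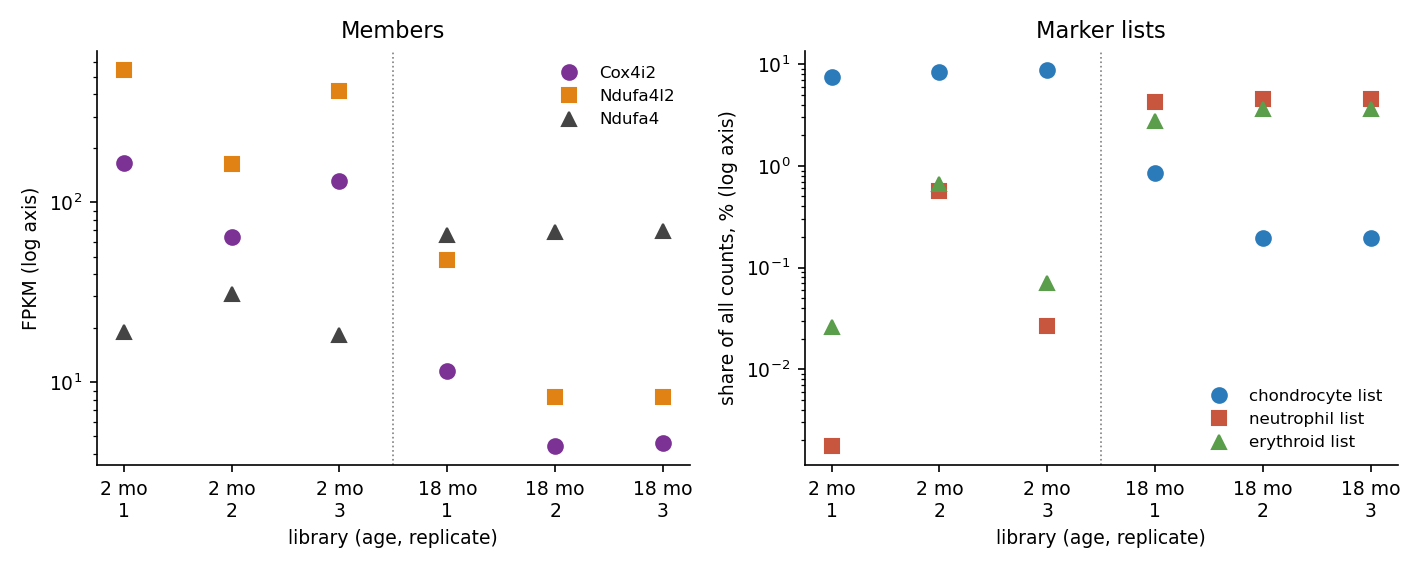
FPKM of Cox4i2, Ndufa4l2 and Ndufa4 (left) and the share of all counts taken by marker lists of chondrocytes, neutrophils and erythroid cells (right) in each of the 6 libraries, both on log axes. Cox4i2 and Ndufa4l2 were lowest among the young in replicate 2, where the neutrophil list took 0.560% of counts, and highest among the aged in replicate 1, where the chondrocyte list took 0.846%.

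The other 3 ubiquitous forms rose by similar amounts. Cox8a (ENSMUSG00000035885, chromosome 19 from 7215153 to 7217616, minus strand) is the common form of subunit 8. Its FPKM was 77.5, 76.6 and 69.1 at 2 months and 135, 134 and 143 at 18 months. The spread within an age was small beside the step between ages, and the edgeR log2 difference was 0.81 ± 0.10 (SE) with an adjusted p of 0.0023. Cox6a1 (ENSMUSG00000041697, chromosome 5 from 115345642 to 115348981, minus strand), the common form of subunit 6a, had an FPKM of 89.1, 81.1 and 73.9 at 2 months and 133, 141 and 131 at 18 months. Its edgeR log2 difference was 0.65 ± 0.12 (SE) with an adjusted p of 0.0066. Cox7a2 (ENSMUSG00000032330, chromosome 9 from 79755361 to 79759878, minus strand), the common form of subunit 7a, had an FPKM of 58.98, 46.2 and 48.5 at 2 months and 70.8, 79.1 and 82.1 at 18 months.

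Cox7a2 rose least, with an edgeR log2 difference of 0.51 ± 0.16 (SE) and an adjusted p of 0.039. This passed the threshold on p narrowly. It was no longer below 0.05 without 2-month replicate 3 (0.116), without 18-month replicate 2 (0.109) or without 18-month replicate 3 (0.116). After rescaling FPKM to TPM, which makes every library add up to the same total, limma gave log2 differences of 0.16 for Cox7a2 (adjusted p = 0.245) and 0.30 for Cox6a1 (adjusted p = 0.053). Against limma on log2(FPKM + 0.1), that rescaling moved the median log2 difference of all genes from 0.07 to -0.33 and the median of the 5 ubiquitous forms from 0.82 to 0.39.

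All 5 ubiquitous forms had an adjusted p below 0.05 and rose, where 23.4% of all 20397 tested genes did so and 27.9% did so in the lower direction. A gene was called when its log2 difference was also above 1 or below -1, the limits that the study used. On that rule 1 ubiquitous form, Ndufa4, was called higher, where 14.9% of tested genes were. Of the 4 tissue-specific forms tested, 3 were called lower (Cox4i2, Ndufa4l2 and Cox7a1), where 21.3% of tested genes were. The FPKM of the ages did not overlap for 5 of 5 ubiquitous forms in the higher direction and for 3 of the 4 tested tissue-specific forms in the lower direction, against 35.6% and 32.8% of tested genes.

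The muscle forms were scarce at both ages. Cox7a1 (ENSMUSG00000074218, chromosome 7 from 30184144 to 30186078, plus strand) had an FPKM of 1.46, 1.895 and 1.84 at 2 months and 1.16, 0.608 and 0.732 at 18 months. The aged values lay below the young ones, with the closest libraries 1.46 and 1.16. The counts were 44, 61 and 56 at 2 months and 43, 22 and 26 at 18 months. Counting error alone was wide, as the exact 95% Poisson interval of the 22 counts ran from 13.8 to 33.3. Such intervals cover counting error only.

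The edgeR log2 difference of Cox7a1 was -1.10 ± 0.37 (SE), a 2.14-fold fall, with an adjusted p of 0.049, at the edge of the threshold. The adjusted p was above 0.05 with median-of-ratios size factors (0.056), with total counts alone (0.066) and without the filter on low counts (0.089). It was also above 0.05 without each of the young libraries (0.085, 0.090 and 0.141 without replicates 1, 2 and 3), without 18-month replicate 2 (0.150) and without 18-month replicate 3 (0.147). Limma on log2(FPKM + 1) gave -0.58, which is inside the limit on the fold change. The fall of Cox7a1 thus kept its direction under all 15 alternatives and its call under 4 of them.

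Cox6a2 (ENSMUSG00000030785, chromosome 7 from 128205435 to 128206387, minus strand) did not pass the test. Its FPKM was 0.849, 1.70 and 0.780 at 2 months and 2.44, 1.02 and 1.27 at 18 months, so the ages overlapped. The counts were 32, 68 and 30 at 2 months and 112, 44 and 55 at 18 months. The edgeR log2 difference was 0.44 ± 0.49 (SE) with an adjusted p of 0.48, and it was 0.01 without 18-month replicate 1. The overlapping gene Itgad, an integrin subunit of leukocytes on the other strand, had counts of 0, 196 and 0 at 2 months and 305, 653 and 733 at 18 months. Among the young libraries replicate 2 was the highest for both genes, and among the aged ones replicate 1 had the most Cox6a2 and the fewest Itgad counts. A part of Itgad reads in the Cox6a2 counts was not tested.

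Cox8b (ENSMUSG00000025488, chromosome 7 from 140898945 to 140900446, minus strand) was found in young libraries only, and at low counts. It had 21, 17 and 4 counts at 2 months and 0, 0 and 0 at 18 months. The FPKM was 1.06, 0.793 and 0.174 at 2 months and 0 in the aged libraries. With 3 counts per library taken as the floor for a count of 0, Cox8b was at least 5.32-fold lower at 18 months by mean share of counts. The exact two-sided 95% Poisson interval of a count of 0 reaches further, to 3.69 counts. The fold also leaves out counting error at 2 months, where the interval of the 4 counts ran from 1.09 to 10.2. It is thus a bound under the chosen floor only. Cox8b did not pass the filter on low counts and has no main test. Without the filter, edgeR gave it an adjusted p of 0.034.

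Expressed as a ratio within each library, the scarce forms stayed far below their partners. Cox6a1 exceeded Cox6a2 in FPKM by 105-fold, 47.6-fold and 94.9-fold at 2 months and by 54.4-fold, 137-fold and 104-fold at 18 months. The ratio had no clear step with age. Cox7a2 exceeded Cox7a1 by 40.5-fold, 24.4-fold and 26.3-fold at 2 months and by 60.9-fold, 130-fold and 112-fold at 18 months. Each aged ratio was above each young ratio. Cox8a exceeded Cox8b by 73.4-fold, 96.5-fold and 399-fold at 2 months, and Cox8b was listed at 0 at 18 months.

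The difference between the ages in the log2 ratio of tissue-specific to ubiquitous form, computed from FPKM + 0.1, was compared for the 5 pairs. It was -4.98 for the Cox4 pair, from 0.61 ± 0.71 to -4.37 ± 0.79 (SD, n = 3 each, exact permutation test, two-sided p = 0.1). For the Ndufa4 pair it was -6.09, from 3.91 ± 1.32 to -2.18 ± 1.49 (SD, n = 3 each, exact permutation p = 0.1). The libraries of the ages were fully separated in both pairs. For the Cox7a pair it was -1.60, from -4.81 ± 0.38 to -6.41 ± 0.53, and for the Cox8 pair -3.60, from -6.83 ± 1.02 to -10.42 ± 0.05 (SD, n = 3 each, exact permutation p = 0.1 for each). The Cox8 value rests on the pseudocount, since Cox8b was at 0 in the aged libraries. For the Cox6a pair the difference was -0.27, from -6.15 ± 0.57 to -6.42 ± 0.65 (SD, n = 3 each, exact permutation p = 0.5). With 3 libraries against 3 the smallest possible p is 0.1, and adjusted over the 5 pairs the values were 0.125, and 0.5 for the Cox6a pair.

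In the Ndufa4 pair 2 libraries moved the ratio most. Its difference was -6.84 without 2-month replicate 2 and -6.95 without 18-month replicate 1.

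**Figure D3:**
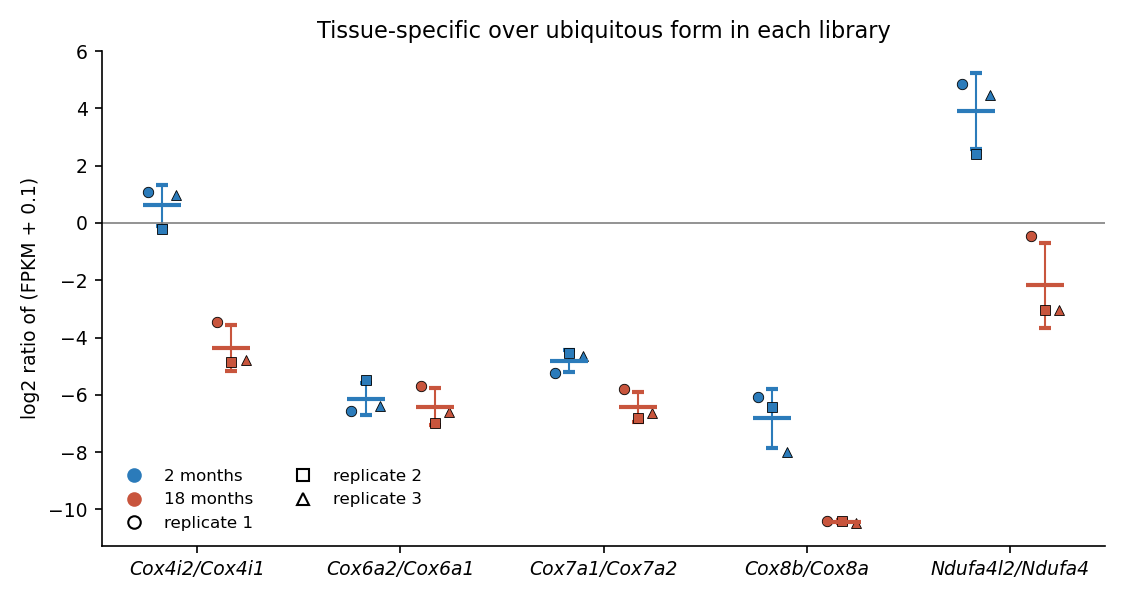
Log2 ratio of (FPKM + 0.1) of the tissue-specific over the ubiquitous form for the 5 pairs, where symbols are libraries and bars are the mean ± SD of 3 libraries. The Cox4 and Ndufa4 ratios lay near or above 0 at 2 months and below 0 at 18 months, and the other 3 ratios lay below -4 in every library.

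The order of the 10 genes by FPKM also changed with age. In 2-month replicate 1 it ran Ndufa4l2, Cox4i2, Cox6a1, Cox4i1, Cox8a, Cox7a2 and Ndufa4, followed by the muscle forms below 2 FPKM. Cox6a1, Cox4i1 and Cox8a, with 2-month means of 81.4 ± 7.60, 73.4 ± 5.93 and 74.4 ± 4.58 (SD, n = 3), were close in level. Cox6a1 was above Cox4i1 and Cox8a in each of the 3 young libraries, while the order of Cox4i1 and Cox8a varied between libraries. At 18 months Cox8a, Cox6a1 and Cox4i1 came first, with means of 137 ± 4.70, 135 ± 5.18 and 130 ± 1.70 (SD, n = 3), and their order varied between libraries. Cox7a2 with 77.3 ± 5.85 and Ndufa4 with 67.8 ± 2.00 (SD, n = 3) followed. Ndufa4l2 was in the sixth place and Cox4i2 in the seventh in every aged library. By counts, which are not scaled by transcript length, Cox4i1 was above Cox6a1 and Cox8a in each of the 6 libraries.

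The other subunits of complex IV give the background of these pairs. Of 8 further nuclear subunits, 3 were called higher, where 14.9% of all tested genes were. Their median log2 difference was 0.85, against -0.02 over all tested genes. Cox6b2, a form of subunit 6b known from testis, had an FPKM of 0.651, 3.11 and 0.590 at 2 months and 11.6, 19.5 and 17.5 at 18 months, with an edgeR log2 difference of 3.42 ± 0.70 (SE, adjusted p = 0.010). Cox6b2 is thus an isoform of restricted expression that rose, unlike Cox4i2, Ndufa4l2 and Cox7a1. Cox5a, which like Cox5b sits on the matrix side of the enzyme, had an FPKM of 6.30, 10.96 and 6.40 at 2 months and 30.5, 31.1 and 30.3 at 18 months, with a log2 difference of 1.89 ± 0.21 (SE). For Cox5b the log2 difference was 1.28 ± 0.16 (SE).

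Cox7b (0.94), Cox6b1 (0.76) and Cox7c (0.48) had log2 differences of the size of those of Cox8a, Cox4i1 and Cox7a2, each with an edgeR adjusted p below 0.05. Cox6c (0.26, adjusted p = 0.17) and Cox7a2l (-0.09, adjusted p = 0.72) did not pass. Cox7a2l is a relative of Cox7a2 that links complexes III and IV into supercomplexes, and its FPKM of 103, 73.4 and 86.3 at 2 months overlapped with 79.4, 89.9 and 93.2 at 18 months. The core subunits encoded in the mitochondrial genome did not follow Cox4i1 or Ndufa4. Their edgeR log2 differences were 0.05 ± 0.30 (SE) for mt-Co1, 0.07 ± 0.18 (SE) for mt-Co2 and 0.06 ± 0.18 (SE) for mt-Co3, with adjusted p-values of 0.90, 0.78 and 0.78.

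**Figure D4:**
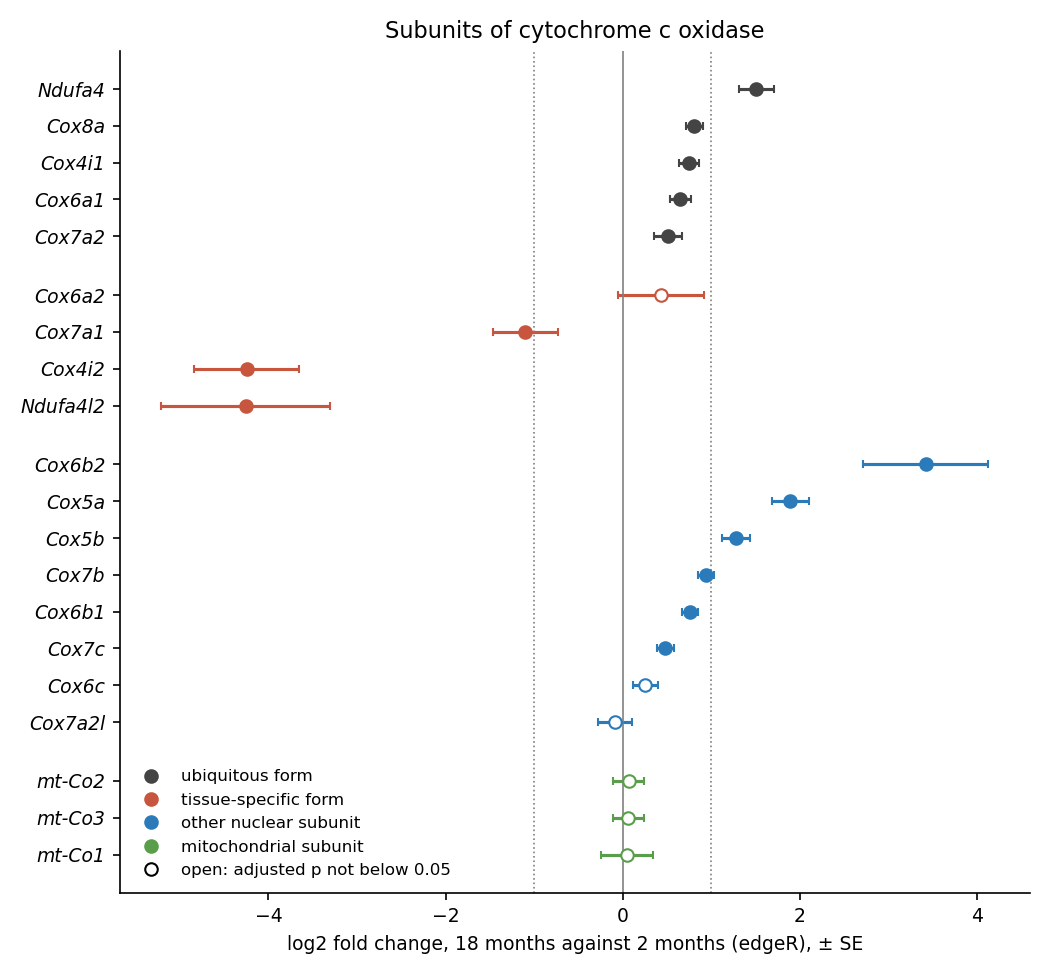
Log2 fold change of 18-month against 2-month cartilage from edgeR, with its standard error, for the 9 tested members, 8 other nuclear subunits and 3 mitochondrial subunits of cytochrome c oxidase, where open symbols had an adjusted p not below 0.05 and dotted lines mark the limits of 1 and -1. Ndufa4 at 1.51 was the only ubiquitous form past the limit, and Cox4i2 and Ndufa4l2 lay at -4.25.

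Because Cox4i2 and Ndufa4l2 are known targets of hypoxia-inducible factors, other such targets were read beside them. Of 17 tested genes of this list, 12 were called lower and 1 higher, against 21.3% and 14.9% of all tested genes. The list had a median log2 difference of -2.06. The largest falls were those of Adm (-6.29 ± 0.64), a vasodilator peptide, Bnip3 (-4.26 ± 0.53), a mitophagy receptor, P4ha1 (-3.62 ± 0.53), a collagen prolyl hydroxylase, and Car12 (-3.53 ± 0.47), a carbonic anhydrase (log2 difference ± SE in edgeR). Cox4i2 and Ndufa4l2, at -4.25 each, lay beside Bnip3 in this order. Bnip3 had an FPKM of 396, 125 and 274 at 2 months and 19.8, 11.8 and 13.1 at 18 months, with 2-month replicate 2 again low.

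The list did not move as one. Pfkfb4, a regulator of glycolysis, rose from an FPKM of 3.55, 4.97 and 3.50 to 22.8, 17.9 and 18.4, with a log2 difference of 2.22 ± 0.15 (SE). Ldha, which makes lactate and was the most abundant of the list, had an FPKM of 442, 205 and 311 at 2 months and 184, 145 and 146 at 18 months, with a log2 difference of -1.11 ± 0.33 (SE). Lonp1, the mitochondrial protease that degrades Cox4i1 protein when Cox4i2 is induced, did not pass the test (-0.31 ± 0.17, SE, adjusted p = 0.18), and neither did Car9 (0.28 ± 0.42, SE, adjusted p = 0.60). The hypoxia list and the chondrocyte list were both lower at 18 months, where both took the largest share of counts in replicate 1. Among the young libraries the summed shares differed in pattern. The hypoxia list took 0.672%, 0.330% and 0.511% of counts in replicates 1, 2 and 3, and the chondrocyte list 7.54%, 8.31% and 8.87%. The chondrocyte markers did not move together there. Acan, Matn1, Hapln1, Sox9, Snorc, Prg4 and Chad were lowest in replicate 2, as the hypoxia list was. The collagens of the list, Matn3, Comp and Cnmd were highest in replicate 2. The part of cell composition in either list was not tested.

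**Figure D5:**
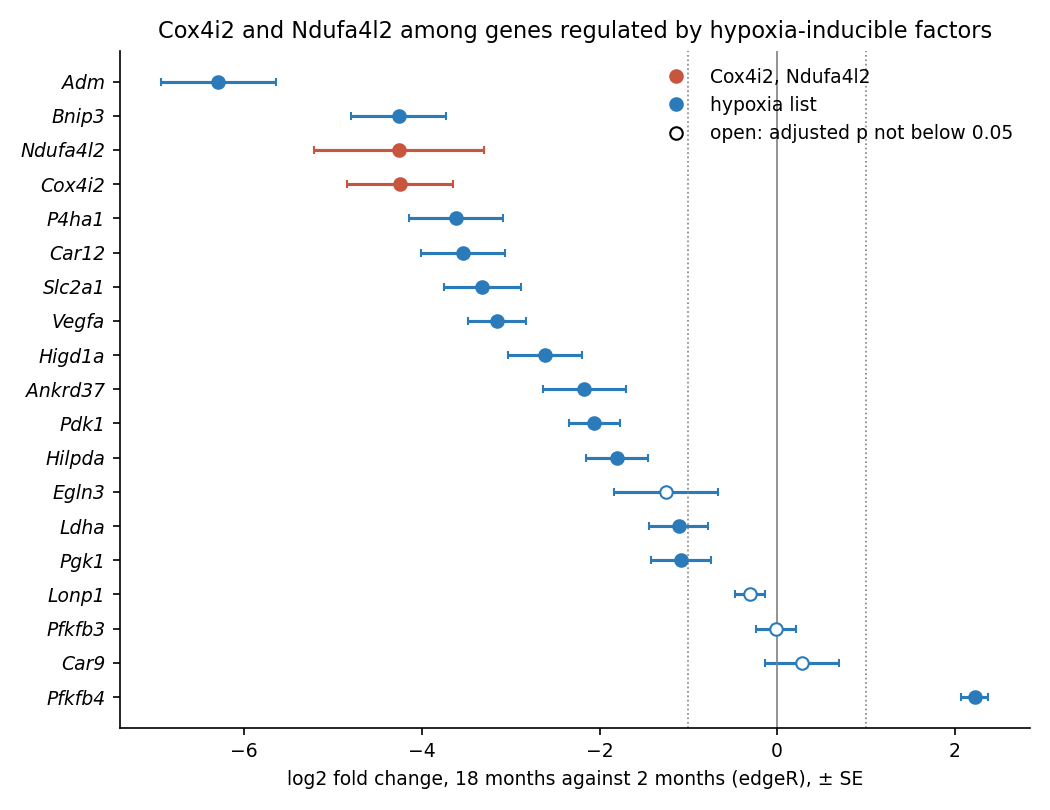
Log2 fold change of 18-month against 2-month cartilage from edgeR, with its standard error, for Cox4i2, Ndufa4l2 and 17 other genes regulated by hypoxia-inducible factors, where open symbols had an adjusted p not below 0.05 and dotted lines mark the limits of 1 and -1. Of the 17 genes, 12 were called lower, Pfkfb4 was called higher, and Cox4i2 and Ndufa4l2 lay between Bnip3 and P4ha1.

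Marker genes of tissues that use the restricted forms were read in the same libraries. Of 16 tested skeletal muscle markers, 11 were called lower, where 21.3% of all tested genes were. The median log2 difference of these markers was -3.96. Ckm, muscle creatine kinase, had an FPKM of 0.700, 2.04 and 1.36 at 2 months and 0.0542, 0.177 and 0.0581 at 18 months. Acta1, skeletal muscle actin, had 0.836, 10.8 and 4.27 at 2 months and 0.142, 0.0317 and 0.0776 at 18 months. The most abundant genes of the list were Tnni2 (44.0, 47.95 and 72.8 at 2 months, 1.26, 0.462 and 0.615 at 18 months) and Eno3 (8.60, 9.54 and 7.64, then 6.44, 5.94 and 6.29). The summed FPKM of the list was 81.5 to 128 at 2 months and 12.9 to 14.3 at 18 months. The summed muscle list, Cox7a1 and Cox8b were thus all lower at 18 months, while Cox6a2 did not pass the test. Among the young libraries the list sum was 81.5, 122 and 128 in replicates 1, 2 and 3. Tnni2 was the largest part of each sum and was highest in replicate 3, as were Tcap, Actn3 and Myh4. Ckm, Acta1, Eno3, Mb and Tnnt3 were instead highest in replicate 2, and Myh7 in replicate 1. Cox8b had 21, 17 and 4 counts in these libraries and was lowest in replicate 3, where the sum and Tnni2 were highest. Cox7a1, with an FPKM of 1.46, 1.895 and 1.84, was lowest in replicate 1, as was the sum. A part of muscle RNA in these values was not tested.

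Markers of the other candidate tissues were mixed. Ucp1, the defining gene of brown fat, had 0 FPKM in every library except 0.0331 in 18-month replicate 2. Cidea, also a brown fat gene, had 2.17, 0.847 and 2.27 at 2 months and 0.0740, 0 and 0 at 18 months. Of 5 tested brown fat markers, 2 were called lower, where 21.3% of all tested genes were. These markers had a median log2 difference of -1.41. The summed FPKM of the list was 8.45 to 9.48 at 2 months and 3.95 to 5.54 at 18 months. The most abundant were Dio2, which did not pass the test, and Cpt1b, with a log2 difference of -1.41.

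Cox4i2 and Ndufa4l2 are also known from pericytes and smooth muscle of vessels, so mural markers were read as well. Of 12 tested genes, 2 were called lower, Cspg4 (-4.65) and Acta2 (-3.46), where 21.3% of all tested genes were. The median log2 difference of the list was -0.13. Rgs5, a pericyte gene, had an FPKM of 1.38, 13.6 and 3.36 at 2 months and 11.5, 11.1 and 9.58 at 18 months. Kcnj8, another, had 0.0269, 2.01 and 0.0931 at 2 months and 2.96, 3.42 and 3.54 at 18 months. Acta2, smooth muscle actin, had 36.9, 12.1 and 32.0 at 2 months and 2.59, 2.75 and 2.59 at 18 months. The list was mixed also among the young libraries, since Rgs5 and Kcnj8 were highest in replicate 2, while Acta2 was lowest there, as were Cox4i2 and Ndufa4l2. A part of mural cells in the levels of Cox4i2 and Ndufa4l2 was not tested.

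The chondrocyte list fell as a whole, with 16 of 16 markers called lower, against 21.3% of all tested genes. Its median log2 difference was -6.50. Col2a1, the main cartilage collagen, had an FPKM of 1411 to 3359 at 2 months and 12.8 to 21.2 at 18 months. The most abundant genes of that list were Prg4, the lubricin of the joint surface (log2 difference -3.10), and Chad, a matrix protein (-6.28). Cox4i2 and Ndufa4l2 fell by less on the log2 scale than the median of this list. Of 12 erythroid markers 4 were called higher and of 10 endothelial markers 1, where 14.9% of all tested genes were. Of 10 osteoblast markers 4 were called lower, where 21.3% of all tested genes were. Of 7 adipocyte markers 2 were called higher and 2 lower. Of 14 neutrophil markers 0 were called, although their median log2 difference was 4.96. For 13 of them the FPKM was higher at 18 months without overlap, against 35.6% of tested genes.

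The levels of Cox4i2 and Ndufa4l2 followed each other over the 6 libraries, with a Pearson r of 0.99 for log2(FPKM + 0.1). The libraries fall into 2 ages, so this r mainly reflects the step between them. A screen covered 14018 genes whose FPKM averaged 1 or more. The 3 whose pattern was most like that of Cox4i2 were Thra, the thyroid hormone receptor alpha, Slc2a1, a glucose transporter and hypoxia target, and Ak4, a mitochondrial adenylate kinase (r of at least 0.9996 over 6 libraries). Slc2a1 had an FPKM of 84.8, 39.5 and 68.2 at 2 months and 10.1, 5.22 and 5.34 at 18 months, with the same order of libraries as Cox4i2. For Ndufa4l2 they were Smoc2, a matricellular protein, Gm14206 and Ccpg1. Smoc2 had 383, 129 and 303 at 2 months and 39.6, 7.21 and 7.47 at 18 months. For Cox7a1 they were Neurl1b, Kmt2d and Atpsckmt, for Cox6a2 Arap1, 2610507B11Rik and Tubgcp6, and for Cox8b Lrch1, Gm29233 and Ctsa, all with r above 0.98 over 6 libraries. These correlations are descriptions over libraries that share their ages and their cell composition.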

How the data were processed

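RNA sequencing was analysed in 3 libraries of articular cartilage from 2-month-old and 3 from 18-month-old wildtype mice. For each gene the authors deposited unnormalized counts and FPKM, which is scaled by transcript length and library total. The submitters' processing notes name cutadapt 1.9, HISAT2 2.0.4, UMI-tools, StringTie 1.3.4d, DESeq2 and edgeR; the adapters carried unique molecular identifiers. The counting settings, genome build and annotation are not given in the sources used here. The authors' own fold changes and p-values were not used, and 0 value columns were left out. Depth was 48171507 to 59085179 counts, which limits precision only for the genes with few counts.

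The counts went into edgeR 4.0.16 under R 4.3.3 (TMM, filterByExpr, quasi-likelihood F test), with Benjamini-Hochberg adjustment over 20397 genes. Calls needed an adjusted p below 0.05 and a log2 fold change above 1 or below -1. Standard errors are the absolute log2 fold change over the root of the F statistic. Ratios within pairs used FPKM with a pseudocount of 0.1 and an exact permutation test over libraries. Alternatives were median-of-ratios size factors, total counts, no filter, DESeq2 1.42.0, limma 3.58.1 on log2 FPKM or TPM, other pseudocounts, a replicate block and leaving out each library. The scripts were tested on simulated data. Sequences were aligned with Biopython 1.88 on GENCODE M21, from the transcript with the longest complete coding sequence of each gene.

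The genes and the lists of other subunits, hypoxia targets and cell type markers were chosen with earlier results of these data known. Named were all 10 genes; of the complex IV and hypoxia lists, up to 4 called genes in each direction and the most abundant; of each list of tissues that use the restricted forms, the most abundant and the defining markers; and for each tissue-specific form the 3 genes of most alike pattern. Genes outside this rule (Cox6b1, Cox7b, Cox7c, Cox6c, Cox7a2l, Lonp1, Car9, Xist, Emc8 and Itgad) were chosen after values were seen.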

Additional observations from a re-analysis of the deposited data

How the results depend on the processing

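Of 320 values of 23 results recomputed under the alternatives, 291 stayed within the limits set for a change, which were the same direction and side of the threshold for a tested value, a factor of 1.5 for a count of genes, and the spread between replicates for a median or a ratio of forms. Counts within that factor still moved, as the members called lower numbered 2 to 4 and the hypoxia genes called lower 10 to 13. For the ratios of forms, the replicate block gives the same difference by arithmetic, so those values could not move. Cox4i2, Ndufa4l2 and Ndufa4 were called under all 15 alternatives fitted, with log2 differences from -4.81 to -3.93, from -5.58 to -3.86 and from 1.18 to 1.76, while Cox7a1 was called under 4 and ranged from -1.49 to -0.58. With limma on log2(TPM + 0.1), 3 in place of 5 ubiquitous forms had an adjusted p below 0.05, and the median of the other complex IV subunits was 0.49 in place of 0.85. That median was 0.92 with total counts alone, 0.93 with DESeq2, 0.93 with limma on log2(FPKM + 0.1) and 0.91 with limma on log2(FPKM + 1). The median of the hypoxia list was -1.52 with limma on log2(FPKM + 1). The difference of the Cox8 ratio was -6.64 with a pseudocount of 0.01, -1.58 with a pseudocount of 1 and -5.65 from counts + 0.5, which follows from Cox8b being at 0 at 18 months. The difference of the Cox6a ratio ranged from -0.63 to 0.05 when a library was left out, and turned to 0.0545 without 2-month replicate 2 and to 0.000933 without 18-month replicate 2; the cause was not tested. Replicate numbers are shared between the ages, and the labels do not say whether same-numbered libraries belong together. Deviations of same-numbered libraries correlated at only 0.03, 0.04 and -0.02. These values show no shared deviation, but they cannot exclude that such libraries were handled together. With a replicate block, 2523 genes were called higher and 3509 lower over all genes, against 3047 and 4354 without it, Cox7a2 had a log2 difference of 0.52 (adjusted p = 0.095) and Cox7a1 one of -1.14 (adjusted p = 0.135). The libraries of 18-month replicates 2 and 3 were closer to each other than any other pair of one age (median chi-square per gene 6.32 times that of counting alone, against 13.1 to 48.8). Summed into 1 sample, an alternative chosen after seeing the data, they gave adjusted p-values of 0.105 for Cox7a2 and 0.137 for Cox7a1 and left the calls of Cox4i2, Ndufa4l2 and Ndufa4. Cox6a2, Cox7a1 and Cox8b had at most 112 counts in any library, which limits the precision of their values.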

Other observations

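Genes around complex IV, chosen after their values were seen, moved in both directions. Slc25a4, the ADP/ATP carrier of heart and muscle, had an FPKM of 93.1, 63.0 and 76.7 at 2 months and 26.9, 27.7 and 27.4 at 18 months, with an edgeR log2 difference of -1.59 (adjusted p = 0.0023). Slc25a5, the carrier of proliferating and most other cells, had 16.8, 74.9 and 22.4 at 2 months and 197, 188 and 194 at 18 months, with a log2 difference of 2.31 (adjusted p = 0.018). The more abundant carrier was thus Slc25a4 in 2-month replicates 1 and 3 and Slc25a5 in every 18-month library. In 2-month replicate 2, the young library with the most neutrophil and erythroid marker counts, Slc25a5 was above Slc25a4. Cycs, the cytochrome c that donates electrons to complex IV, had a log2 difference of 1.38 (adjusted p = 0.0042).

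The genes of the hypoxia-inducible factors were lower themselves. Hif1a had an FPKM of 61.8, 49.2 and 52.2 at 2 months and 17.5, 16.0 and 15.5 at 18 months (edgeR log2 difference -1.82, adjusted p = 0.0012). Epas1, which encodes the second alpha subunit, had 28.0, 19.3 and 25.1 at 2 months and 7.19, 8.11 and 9.03 at 18 months (log2 difference -1.66, adjusted p = 0.0025). Hif1a protein is controlled mainly by its stability, which these libraries do not measure.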
